A study of Mus musculus with 14 samples.

Results

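Beta-klotho (Klb) was described with its paralog klotho (Kl), its ligand Fgf21 and the 4 FGF receptor genes Fgfr1, Fgfr2, Fgfr3 and Fgfr4 in the ovaries and uteruses of aged mice. These 7 genes were chosen by symbol from the 21853 genes of the deposited table, and all 7 were found in it. Ovary and uterus RNA of 3 OC (old control) and 4 OT (old treatment) mice was sequenced in 14 libraries that form 4 groups. The mice were all female C57BL/6J of 28 weeks, and all had received pregnant mare serum gonadotropin and then human chorionic gonadotropin, 10 IU each and 48 h apart, before the treatment. The OT mice were injected by the tail vein with AMSC-CM, a pool from several donors of the medium in which human mesenchymal stem cells of the amniotic membrane had grown, 6 times at intervals of 4 days and at 1 µL per g, and the OC mice with saline. The values were FPKM, fragment numbers relative to transcript length and to the mapped fragments, which can be compared between genes because they are per length.

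Fibroblast growth factors (FGFs) act through receptor tyrosine kinases, and most of them need heparan sulfate to bind these receptors. The endocrine members Fgf15, Fgf21 and Fgf23 bind heparan sulfate weakly and need a klotho protein instead: beta-klotho joins Fgf21 and Fgf15 to the receptors, and klotho joins Fgf23. Klb is known for its expression in liver and adipose tissue, whereas in the uterus the receptor Fgfr2 of the epithelium is known to receive Fgf7 and Fgf10 from the stroma.

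The start regions of Klb, Kl and Fgf21 are printed because these are the co-receptor that the OT and OC groups differed in, its paralog and its ligand. Each window runs from 250 bases before to 50 bases after the RefSeq start on GRCm38.p6, 5′ to 3′ on the strand of the gene, with the motifs found in capitals. The windows are chr5:65348161-65348460 on the + strand for Klb, chr5:150952357-150952656 on the + strand for Kl and chr7:45615441-45615740 on the - strand for Fgf21.
Klb: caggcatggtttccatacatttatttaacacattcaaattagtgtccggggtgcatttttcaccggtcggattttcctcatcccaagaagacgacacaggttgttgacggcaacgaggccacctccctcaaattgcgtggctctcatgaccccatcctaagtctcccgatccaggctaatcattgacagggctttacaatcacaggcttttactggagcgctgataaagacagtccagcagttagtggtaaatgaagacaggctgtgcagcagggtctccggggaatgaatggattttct
Kl: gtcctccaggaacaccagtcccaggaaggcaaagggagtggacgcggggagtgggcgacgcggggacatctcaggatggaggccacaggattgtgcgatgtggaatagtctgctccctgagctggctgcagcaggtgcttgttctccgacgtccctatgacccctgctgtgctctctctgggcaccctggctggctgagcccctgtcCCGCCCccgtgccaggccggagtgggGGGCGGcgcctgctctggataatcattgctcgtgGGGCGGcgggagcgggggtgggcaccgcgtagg
Fgf21: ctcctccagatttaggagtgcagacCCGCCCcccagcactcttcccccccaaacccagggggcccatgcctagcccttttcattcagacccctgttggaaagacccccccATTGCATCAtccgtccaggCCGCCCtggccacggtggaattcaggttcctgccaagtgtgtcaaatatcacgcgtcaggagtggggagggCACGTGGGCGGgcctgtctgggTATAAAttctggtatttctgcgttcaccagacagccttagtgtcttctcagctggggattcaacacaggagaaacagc
The motifs searched on both strands were the TATA box TATAAA, the CCAAT box CCAAT, the GC box GGGCGG, the E box CACGTG, the DR1 element (AGGTCA repeated after 1 base), the cAMP response element TGACGTCA and the amino acid response element ATTGCATCA. None of these letters occurred in the Klb window, where 48.3% of the bases were G or C, against a median of 52.7% over all 32851 windows of the table. The Kl window had 3 GC boxes and 67.3% G or C. The Fgf21 window had a TATA box 28 bases before the start, an E box at 50 bases that overlaps a GC box, an amino acid response element at 140 bases and 2 other GC boxes, with 58.0% G or C. A TATA box was found in 13.6% of all windows, a CCAAT box in 37.4%, a GC box in 35.7%, an E box in 7.15%, the DR1 element in 0.0396%, the cAMP response element in 1.79% and the amino acid response element in 0.192%. A GC box was found in 5 of the 7 windows of the members. Windows were matched for 6 of the 7 members, and Fgfr1 had none.

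The receptors Fgfr2 and Fgfr1 had the highest mean levels of the members in both tissues. In the ovary the mean over 7 libraries was 36.2 FPKM for Fgfr2, 15.8 for Fgfr1, 5.79 for Fgfr3, 1.96 for Fgfr4, 1.02 for Klb, 0.825 for Kl and 0 for Fgf21. The ranges of Fgfr2, Fgfr1, Fgfr3 and Fgfr4 did not overlap between neighbours in this order. Fgfr4 was above Klb in 6 of 7 ovary libraries, and Klb was above Kl in only 2 of 7, so that the order of these 3 genes was not beyond their spread. In the uterus the means were 56.5 FPKM for Fgfr2, 21.8 for Fgfr1, 4.25 for Klb, 2.58 for Fgfr3, 0.228 for Fgfr4, 0.0486 for Kl and 0.0262 for Fgf21. The third place of Klb rested on a single library, since Klb was above Fgfr3 in 1 of 7 uterus libraries, whereas Fgfr3 was above Fgfr4 in 7 of 7.

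**Figure D1:**
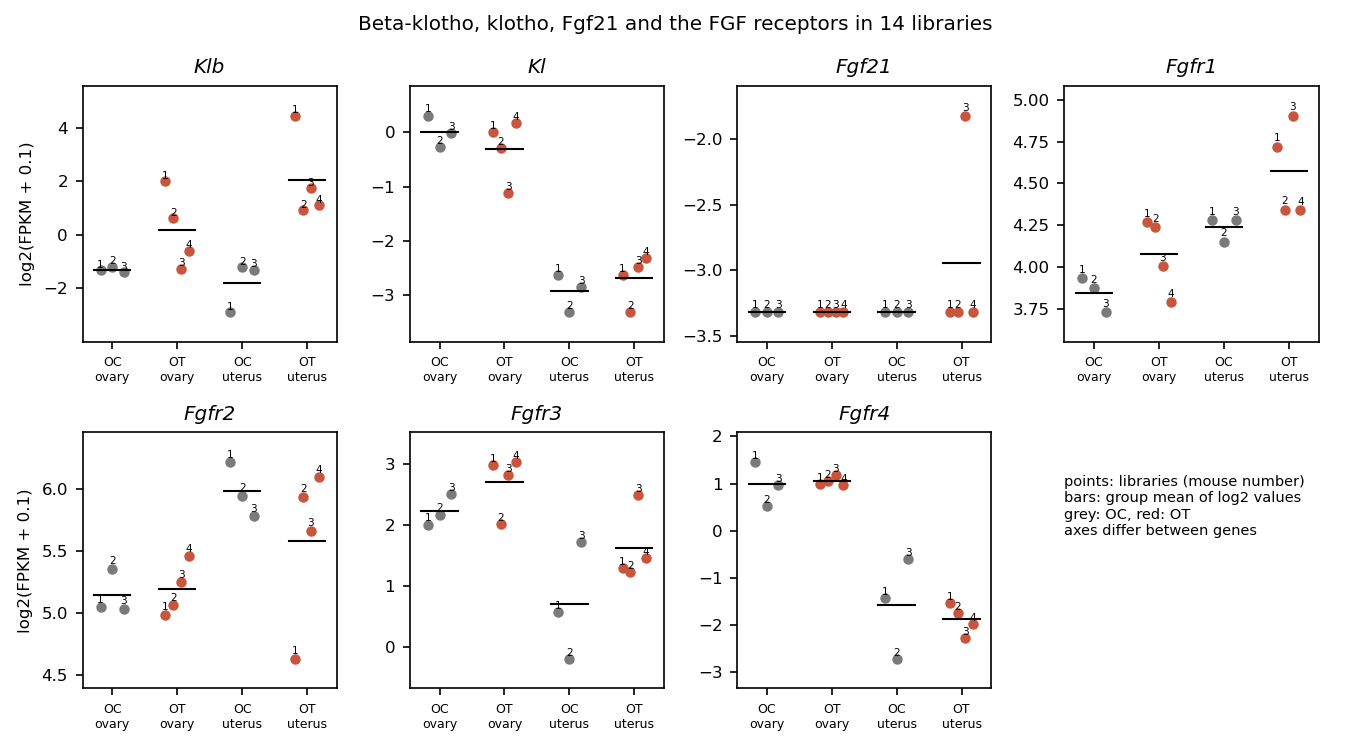
Levels of the 7 members in the 14 libraries, as log2(FPKM + 0.1) on the y axis with a separate scale for each gene. Grey points are OC and red points OT libraries, numbers are mouse numbers and bars are group means of the log2 values. For Klb and Fgfr1 in the uterus every OT point lies above every OC point, as for 6.46% of the genes tested there. Fgf21 is above 0 in 1 library.

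Of the members, 6 had enough expression for a test between OT and OC ovaries and 4 for one between the uteruses, and the only call was Klb in the uterus. Klb reached the minimum mean of 0.5 FPKM for a test through the OT libraries alone, in both tissues, since both OC means lay below it. Its level was 32.2 times as high in the mean of the OT uteruses, and the largest part of that mean came from the uterus of mouse OT1. Klb (ENSMUSG00000029195.10) is protein coding and lies at chr5:65348314-65384007 on the + strand of mm10. In the OC uteruses Klb was 0.0349, 0.335 and 0.308 FPKM, in the order of the mouse numbers. In the OT uteruses it was 22.0, 1.80, 3.24 and 2.06 FPKM. Every OT uterus was therefore above every OC uterus, with a mean of 7.27 ± 9.84 FPKM (SD, n = 4) against 0.226 ± 0.166 (SD, n = 3). By limma on log2(FPKM + 0.1), the log2 fold change was 3.86 (SE 0.88, 95% interval 1.82 to 5.89, unadjusted p = 0.00235). Following the cutoffs of the study, a gene was called when OT and OC differed at least 2-fold with an unadjusted p no greater than 0.05. Of the 14151 genes tested in the uterus 2.9% were called, 2.23% higher and 0.664% lower in OT. The Benjamini-Hochberg adjusted p of Klb by limma was 0.396, and no gene had an adjusted p under 0.05, against 1160 genes with an unadjusted p under 0.05. Klb was singled out by the study on these same samples, so its call here is not independent evidence. Without the OT1 uterus the log2 fold change of Klb was 3.05 (unadjusted p = 0.000857 by limma), still past both cutoffs. With a pseudocount of 1 in place of 0.1 it was 2.14, since the OC values lie near 0. Complete separation in this direction was seen in 6.46% of the genes tested in the uterus.

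In the ovary the OT libraries spread over a wide range of Klb, from the level of the OC ovaries upwards. The OC ovaries were at 0.301, 0.336 and 0.282 FPKM. The OT ovaries were at 3.93, 1.44, 0.316 and 0.564 FPKM, of which OT3 lay within the OC range and the other 3 above it. The group means were 1.56 ± 1.65 FPKM (SD, n = 4) in OT and 0.306 ± 0.0273 (SD, n = 3) in OC. The log2 fold change by limma was 1.495 (SE 0.71, 95% interval -0.13 to 3.12, unadjusted p = 0.0665, adjusted p = 0.997), which missed the cutoffs. In this tissue 0.451% of the 14415 genes tested passed them, 0.368% higher and 0.0832% lower in OT, none had an adjusted p under 0.05 by limma, and 650 had an unadjusted p under 0.05. The call depended on a single mouse: without the OT3 ovary the log2 fold change was 1.98 (unadjusted p = 0.0139 by limma), past both cutoffs, and without the OT1 ovary it was 0.89. Mouse OT1 had the highest Klb of the 7 mice in both tissues. The mean of the OT ovaries was 5.10 times that of the OC ovaries. Unlike limma here, the study's own test, Cuffdiff, called Klb higher in the OT ovaries at the same cutoffs.

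The Klb difference between OT and OC was 2.36 log2 units larger in the uterus than in the ovary (SE 1.23, 95% interval -0.28 to 5.00, unadjusted p = 0.0758, adjusted p = 0.844 by limma). This difference between the tissues missed the cutoffs, which 1.83% of 14557 genes passed, none of them at an adjusted p under 0.05 and 746 at an unadjusted p under 0.05. Without mouse OT1 it was 2.16 and passed them (unadjusted p = 0.0169 by limma). These fits took the ovary and the uterus of a mouse as independent libraries. With the mouse as a random block, the Klb difference was also 2.36 and missed the cutoffs (unadjusted p = 0.0623, adjusted p = 0.785 by limma). Between the tissues themselves Klb was not called, with a log2 difference of uterus minus ovary of 0.85 (SE 0.51, adjusted p = 0.186 by limma with the mouse as a block). That call also changed with single mice, to 1.26 (adjusted p = 0.0441 by limma) without OC1, and it was 1.87 (adjusted p = 0.0178 by limma) in the OT mice alone.

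Klb moved with the markers of adipocytes, the fat cells. Of 22 listed adipocyte markers 21 were in the table, and 20 of them were called higher in the OT uteruses, with a median log2 fold change of 3.595, against 0.01 over all genes tested. In the ovary 12 of the 21 were called higher, with a median of 1.24 against -0.01. None of the 21 was called lower in either tissue. Over all genes tested, 2.23% were called higher in the uterus and 0.368% in the ovary. Most of the 21 are among the genes that the study listed as higher in OT in both tissues of these same mice. The list was also chosen with earlier results known, so these counts are not independent evidence. The summed level of the markers ran from 246 to 542 FPKM in the OC uteruses and was 18710, 2202, 4132 and 2338 FPKM in the OT uteruses. In the ovary it ran from 390 to 552 FPKM in OC and was 3018, 2196, 459 and 837 FPKM in OT. The OT3 ovary, whose Klb was at the level of the OC ovaries, was thus also the OT ovary whose marker sum lay within the OC range. Of the defining markers Adipoq, Plin1, Cidec and Lep none was at 0 in any library. Adiponectin (Adipoq) was between 8.40 and 28.6 FPKM in the OC uteruses and between 117 and 777 FPKM in the OT uteruses. The part of adipocytes in the Klb difference was not tested. In bulk tissue, more cells of a type and more RNA per cell cannot be told apart.

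Relative to the adipocyte markers, the Klb values of the groups overlapped in the ovary but not in the uterus. Per 100 FPKM of summed markers, Klb was 0.0719, 0.0862 and 0.0512 FPKM in the OC ovaries and 0.130, 0.0655, 0.0688 and 0.0674 FPKM in the OT ovaries, so that the groups overlapped. In the uterus this ratio was 0.0142, 0.0618 and 0.0633 in OC and 0.118, 0.0815, 0.0784 and 0.0882 in OT, so that every OT value was above every OC value. With the low OC1 value included, the uterus ratios ran from 0.0142 to 0.118. Per 100 FPKM of Adipoq alone, Klb ran from 0.415 to 1.25 in OC and from 1.29 to 2.83 in OT uteruses. With the mean log2 level of the markers as a covariate in limma, the log2 fold change of Klb was -0.080 in the uterus (unadjusted p = 0.901 by limma) and -0.28 in the ovary (unadjusted p = 0.595 by limma). In the uterus the marker sums of OT and OC did not overlap, so the group and the covariate cannot be told apart there.

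**Figure D2:**
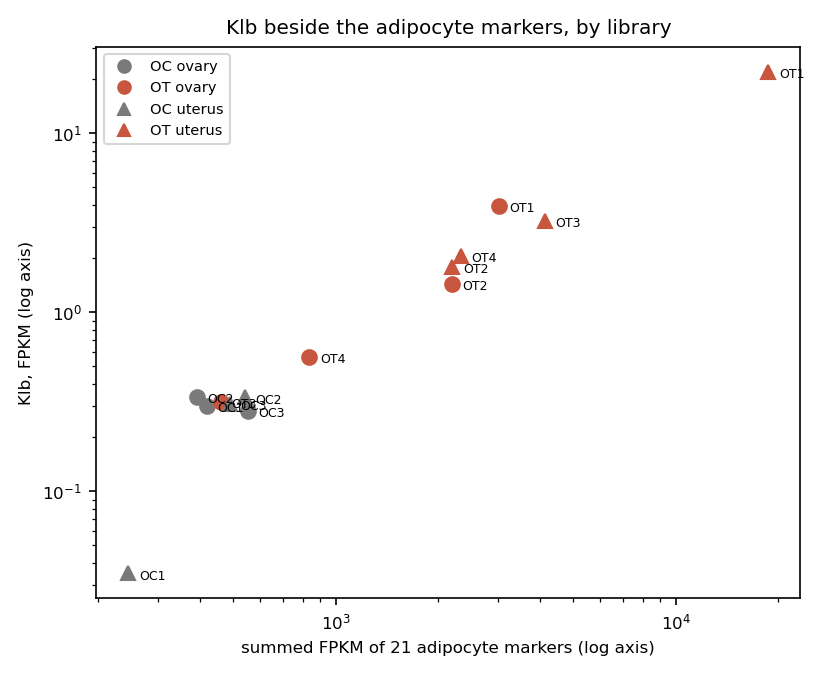
Klb in FPKM (y axis, log scale) against the summed FPKM of 21 adipocyte markers (x axis, log scale) in the 14 libraries, with circles for ovary, triangles for uterus, grey for OC and red for OT. The OT1 uterus is at the top right with 22.0 FPKM of Klb, the OC1 uterus at the bottom left, and the OT3 ovary among the OC libraries.

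The genes whose levels followed those of Klb most closely were mostly adipocyte genes. Likeness was the root mean square difference between log2(FPKM + 0.1) values over the 14 libraries, each centred on the mean of its tissue. Klb itself varied by 1.80 log2 units on this measure. The nearest genes were B3galt2, a galactosyltransferase, at 0.300, carbonic anhydrase 3 (Car3) at 0.332, the fatty acid binding protein gene Fabp4 at 0.346, Adipoq at 0.359 and the lipid droplet gene Plin1 at 0.361. Of these 5 genes, 4 were on the adipocyte list. B3galt2 was at 0.273, 0.756 and 0.727 FPKM in the OC uteruses and at 27.3, 3.44, 6.33 and 3.02 FPKM in the OT uteruses, with the uteruses in the same order as for Klb apart from OT2 and OT4. The measure describes these 14 libraries, which share tissues and mice, and carries no test. Profiles were centred by tissue and not by group, so genes with a similar difference between OT and OC come out as near. All 5 genes are among those that the study listed as higher in OT in both tissues.

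Markers of other tissues also differed between the uterus libraries. Brown adipocyte markers summed to 725 FPKM in the OT1 uterus, to between 35.7 and 47.6 FPKM in the OC uteruses, and to 17.3 FPKM in the lowest OT uterus. Ucp1, which defines brown adipocytes, was at 210 FPKM in the OT1 uterus, at 0.112 in OT3 and at 0 in all other libraries. Of the 7 brown adipocyte markers tested in the uterus the only one called was Dio2, a deiodinase gene, which was lower in OT (log2 fold change -1.17, unadjusted p = 0.00779 by limma). Of 10 squamous epithelium markers tested in the uterus 7 were called higher in OT, beside 2.23% of all genes tested there. The sum of all 14 listed markers ran from 2.96 to 14.5 FPKM in OC and from 46.5 to 806 in OT. With OC values this low, markers could reach the minimum mean for a test through the OT libraries, so this count is not independent evidence. Of 8 urothelial markers tested in the uterus, Psca was the only one called, higher in OT (log2 fold change 4.04, unadjusted p = 0.0242 by limma). The urothelial sums were 268.5, 83.3, 17.8 and 13.8 FPKM in the OT uteruses and ran from 19.1 to 23.5 FPKM in OC. The urothelial marker Upk3a was at 48.7 FPKM in the OT1 uterus and at 0 in the other uteruses. None of the 9 uterus markers was called, but only 1 of them had a log2 fold change above 0. Their median was -0.46, against 0.01 over all genes tested, with sums of 587 to 699 FPKM in OC and 385 to 539 in OT. The tissue labels held: granulosa markers were lower in the uterus in 7 of 7 cases, and smooth muscle markers were higher in 7 of 7. Oviduct markers were present in the ovary libraries, with sums of 529 to 1049 FPKM. The part of these other cell types in the results was not tested.

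Klotho (Kl, ENSMUSG00000058488.7, chr5:150952607-150993817, + strand), the co-receptor of Fgf23, was tested only in the ovary and was not called there. In the OC ovaries it was 1.14, 0.727 and 0.890 FPKM, and in the OT ovaries 0.907, 0.722, 0.357 and 1.03 FPKM. The groups overlapped, and the log2 fold change was -0.31 (SE 0.38, 95% interval -1.18 to 0.55, unadjusted p = 0.431 by limma). In the uterus Kl was between 0 and 0.101 FPKM, listed at 0 in the OC2 and OT2 libraries, and below the minimum mean of 0.5 FPKM for a test. Without that minimum, Kl was lower in the uterus than in the ovary by a log2 difference of -2.62 (SE 0.23, adjusted p = 3.29e-05 by limma with the mouse as a block).

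Lctl, another klotho-like gene, was listed among the partners of the FGF receptors. It was at 0.167, 0.266 and 0.141 FPKM in the OC uteruses and at 6.78, 1.33, 1.34 and 1.34 FPKM in the OT uteruses. All OT uteruses were above all OC uteruses, with a log2 fold change of 2.89 (SE 0.62, unadjusted p = 0.00164, adjusted p = 0.395 by limma), past the cutoffs. Such separation was seen in 6.46% of the genes tested in the uterus. In the ovary Lctl was 0.629 ± 0.185 FPKM (SD, n = 3) in OC and 0.667 ± 0.353 (SD, n = 4) in OT. Like Klb, Lctl reached the minimum mean in the uterus only through the OT libraries. It was highest in the OT1 uterus, and without that library its log2 fold change was 2.33 (unadjusted p = 0.000782 by limma).

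The ligand of beta-klotho was at or near 0 throughout. Fgf21 (ENSMUSG00000030827.5, chr7:45613886-45615490, - strand) was listed at 0 in all 7 ovary libraries and in 6 of the 7 uterus libraries, and at 0.183 FPKM in the OT3 uterus. It was tested in neither tissue, and no fold is given against groups at 0. Fgf15, the other ligand that uses beta-klotho, was listed at 0 in all 14 libraries, and Fgf23, the ligand that uses klotho, was above 0 only in the OT3 ovary at 0.107 FPKM. The depth of the libraries is unknown, so these zeros give no upper limit.

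The other FGF ligands gave no call between OT and OC and 5 calls between the tissues. Of the 21 other FGF genes 10 were tested in the ovary and 9 in the uterus. Their median log2 fold change between OT and OC was 0.10 for ovaries (-0.01 over all genes tested) and 0.46 for uteruses (0.01 over all genes tested). The paracrine ligand Fgf2 was at 6.33 ± 0.850 FPKM (SD, n = 3) in the OC and 11.4 ± 5.54 (SD, n = 4) in the OT uteruses, with a log2 fold change of 0.74 (SE 0.32, unadjusted p = 0.047, adjusted p = 0.599 by limma), below a fold change of 2. Fgf7 was at 4.31 ± 0.596 FPKM (SD, n = 3) and 7.60 ± 3.13 (SD, n = 4) in the same groups (unadjusted p = 0.058 by limma). Between tissues, 5 of 9 ligands tested were called higher in the uterus and none was called lower: Fgf9 by 1.82 log2 units, Fgf12 by 1.35, Fgf7 by 1.23, Fgf13 by 1.06 and Fgf10 by 1.04, each with an adjusted p under 0.05 by limma. Fgf2 was at -0.61 (adjusted p = 0.0103 by limma), below 2-fold. Fgf12 and Fgf13 belong to the intracellular FGF homologs, which do not act as secreted ligands. Over all genes, 10.1% were called higher and 9.53% lower in the uterus.

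Of the receptors, Fgfr1 (ENSMUSG00000031565.18, chr8:25513654-25575718, + strand) is the main partner of beta-klotho for Fgf21 in adipose tissue. In the OC uteruses it was 19.3, 17.7 and 19.3 FPKM, and in the OT uteruses 26.2, 20.2, 29.9 and 20.1 FPKM. Every OT value was above every OC value, as for 6.46% of the genes tested in the uterus. OT2 and OT4 were above the highest OC value by less than 1 FPKM. The log2 fold change was 0.34 (SE 0.17, 95% interval -0.05 to 0.73, unadjusted p = 0.0811, adjusted p = 0.616 by limma), which missed both cutoffs. In the ovary the OC libraries were at 15.2, 14.6 and 13.2 FPKM and the OT libraries at 19.2, 18.8, 16.0 and 13.7 FPKM. These groups overlapped through OT4, with a log2 fold change of 0.23 (SE 0.13, unadjusted p = 0.102 by limma). Fgfr1 was higher in the uterus than in the ovary by 0.45 log2 units (SE 0.10, adjusted p = 0.00319 by limma with the mouse as a block), a fold change of 1.37 that is below the cutoff of 2. With values scaled to TPM it was 0.21 (adjusted p = 0.138 by limma), where the median of all genes was -0.25. An adjusted p under 0.05 was found for 52.2% of all genes in this comparison.

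Fgfr2 (ENSMUSG00000030849.18, chr7:130162451-133123350, - strand), the most abundant receptor gene, was not called between OT and OC, and its groups overlapped in both tissues. In the uterus it was 74.3, 61.6 and 54.9 FPKM in OC and 24.7, 61.1, 50.7 and 68.3 FPKM in OT. The OT1 uterus was the lowest, and the next lowest library, OT3, was at more than 2 times its level. The log2 fold change was -0.40 (SE 0.33, 95% interval -1.17 to 0.37, unadjusted p = 0.265 by limma), and -0.08 without OT1. In the ovary Fgfr2 was 35.6 ± 4.68 FPKM (SD, n = 3) in OC and 36.7 ± 5.47 (SD, n = 4) in OT, with a 95% interval of the log2 fold change from -0.25 to 0.33. With the adipocyte markers as a covariate the uterus value of Fgfr2 turned to 1.02 (unadjusted p = 0.00806, adjusted p = 0.679 by limma). This passed both cutoffs in the opposite direction and was the only call among the members in that fit. The marker sums of OT and OC uteruses did not overlap, and OT1 had the highest sum and the lowest Fgfr2. The fit therefore cannot tell the group from the covariate, and the value is not read as a higher Fgfr2 in OT. Between tissues Fgfr2 was higher in the uterus by 0.58 log2 units (SE 0.15, adjusted p = 0.0103 by limma with the mouse as a block), below 2-fold. It was 0.33 (adjusted p = 0.165 by limma) with TPM scaling and 0.39 (adjusted p = 0.192 by limma) in the OT mice alone.

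Fgfr3 (ENSMUSG00000054252.18, chr5:33721674-33737068, + strand) was lower in the uterus than in the ovary. In the ovary it was 3.91, 4.40 and 5.55 FPKM in OC and 7.78, 3.92, 6.93 and 8.07 in OT. In the uterus it was 1.39, 0.772 and 3.19 FPKM in OC and 2.35, 2.24, 5.51 and 2.63 in OT. The log2 difference of uterus minus ovary was -1.28 (SE 0.23, adjusted p = 0.00119 by limma with the mouse as a block), past the cutoff of 2-fold that 19.6% of all genes passed at an adjusted p under 0.05. With a pseudocount of 1 it was -0.98 and no longer reached 2-fold. Between OT and OC the groups overlapped in both tissues, with log2 fold changes of 0.48 in the ovary (SE 0.25, unadjusted p = 0.0909 by limma) and 0.92 in the uterus (SE 0.50, unadjusted p = 0.102 by limma). The uterus value passed the cutoffs only without OC3 (1.43, unadjusted p = 0.0158 by limma). The genes nearest to Fgfr3 by the likeness measure, on which Fgfr3 varied by 0.629, were Ripor3, Ppp1r13l, Nrcam, Dll1 and Ciart, at 0.374 to 0.405. Those distances are more than 0.5 times the variation of Fgfr3 itself, so the likeness was weaker than that of the Klb neighbours.

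Fgfr4 (ENSMUSG00000005320.9, chr13:55152640-55168759, + strand), the receptor that pairs with beta-klotho in liver, had the largest difference between the tissues among the members tested. It was 2.65, 1.33 and 1.87 FPKM in the OC ovaries and 1.88, 1.97, 2.17 and 1.86 FPKM in the OT ovaries. In the uterus it was between 0.0524 and 0.563 FPKM in OC and between 0.108 and 0.246 FPKM in OT. Every ovary library was above every uterus library, and the log2 difference of uterus minus ovary was -2.77 (SE 0.26, 95% interval -3.35 to -2.20, adjusted p = 1.84e-05 by limma with the mouse as a block). Of all genes tested, 9.53% were called lower in the uterus and 52.2% had an adjusted p under 0.05 by limma. The share of all genes that separate the tissues in this way was not counted. Between OT and OC in the ovary the log2 fold change was 0.06 (SE 0.24, 95% interval -0.49 to 0.61). Its mean in the uterus was below the minimum for a test. Fgfr4 thus entered the comparison of the tissues only through the ovary libraries, where it was high. Since the uterus values lie near 0, the size of the difference depended on the pseudocount. It was -3.32 with a pseudocount of 0.01 and -1.27 with a pseudocount of 1.

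**Figure D3:**
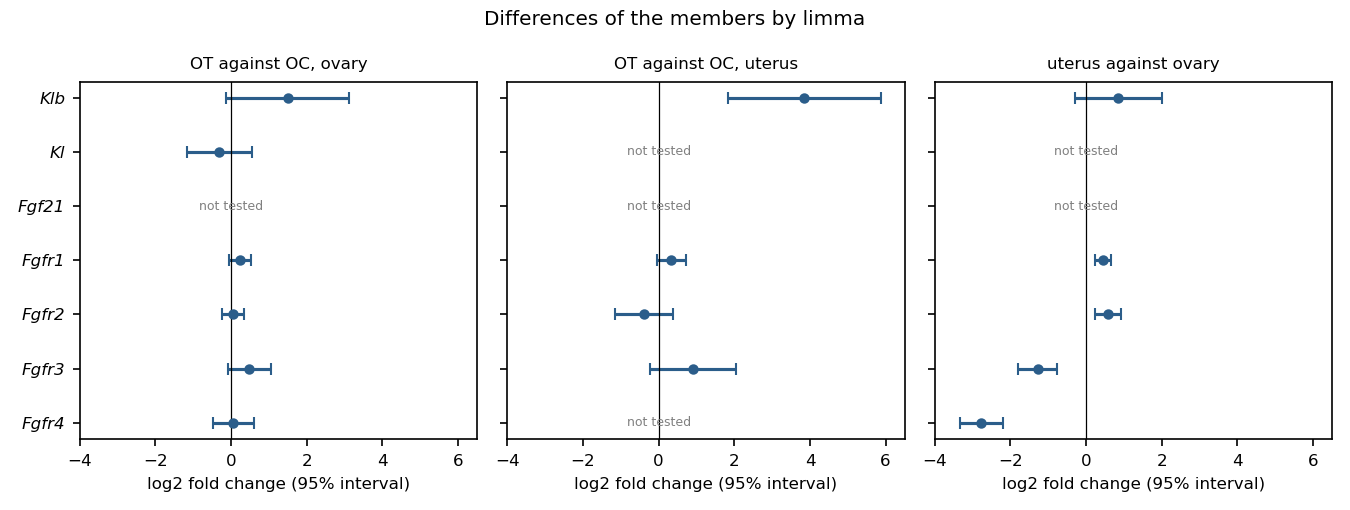
Log2 fold changes of the members tested by limma (points) with 95% intervals (bars), with the others marked as not tested, for OT against OC in the ovary, OT against OC in the uterus, and uterus against ovary. For OT against OC only the interval of Klb in the uterus excludes 0. For uterus against ovary the intervals of Fgfr1 and Fgfr2 lie above 0 and those of Fgfr3 and Fgfr4 below 0.

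Fgfr3 and Fgfr4 made up a smaller share of the receptor mRNA in every uterus than in every ovary library. Fgfr2 made up 60.5% ± 4.78 (SD, n = 7) of the summed FPKM of the 4 receptor genes in the ovary and 68.3% ± 11.7 (SD, n = 7) in the uterus. Fgfr3 made up 6.74% to 12.9% in the ovary and 0.964% to 6.40% in the uterus, and Fgfr4 2.18% to 4.84% and 0.0654% to 0.722%. The OT1 uterus stood apart, with 49.0% Fgfr1 and 46.2% Fgfr2, against 20.3% to 34.7% Fgfr1 in the other uteruses. It was the only library with more Fgfr1 than Fgfr2, at a ratio of Fgfr2 to Fgfr1 of 0.942. The same library held the highest adipocyte sum and Ucp1, and the part of those cells in its receptor shares was not tested. The gene-level values do not separate the splice forms of the receptors, which differ in the ligands they bind.

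**Figure D4:**
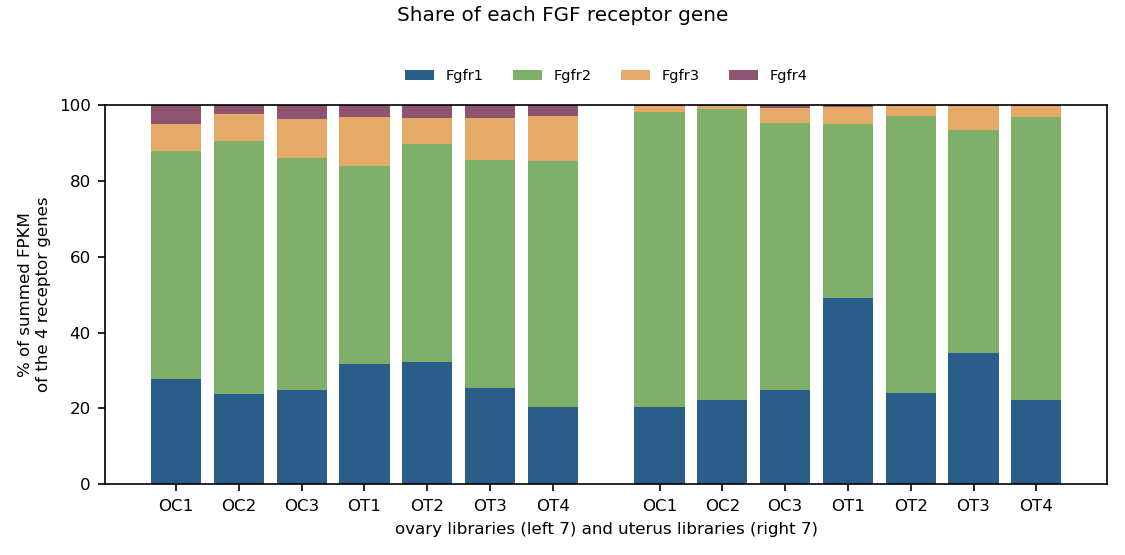
Share of Fgfr1, Fgfr2, Fgfr3 and Fgfr4 in their summed FPKM (y axis, percent) in each of the 7 ovary and 7 uterus libraries. Fgfr2 is the largest share in every library but the OT1 uterus, where Fgfr1 reaches 49.0%.

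The wider FGF pathway was described by 5 lists with 76 genes beside the members, of which 75 were in the table. In the ovary 63 were tested and none was called, with a median log2 fold change of 0.00 against -0.01 over all genes tested. None of these 63 had an unadjusted p under 0.05 by limma. In the uterus 60 were tested, 3 were called higher and none lower, a share to be read beside the 2.23% of all genes called higher. The 3 genes were Lctl, the phosphatase gene Dusp4 and Pparg. The median over the 60 genes was 0.15 log2 units, against 0.01 over all genes tested.

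The adaptors and kinases that carry the FGF signal, such as Frs2, Grb2 and the mitogen-activated kinases, showed no call. All 16 were tested in both tissues, and their median log2 fold change was -0.03 for ovaries and -0.09 for uteruses. Of the 14 other receptor partners tested in the uterus, Lctl was the only one called. Fgfrl1, a receptor-like protein without a kinase, was at 11.7 ± 2.10 FPKM (SD, n = 3) in the OC and 17.5 ± 6.96 (SD, n = 4) in the OT uteruses (log2 fold change 0.52, unadjusted p = 0.0973 by limma).

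The feedback genes that FGF signalling is known to induce gave 1 call among 12 tested in the uterus. Dusp4, which dephosphorylates mitogen-activated kinases, was 0.407, 0.204 and 1.60 FPKM in the OC and 9.70, 1.86, 1.78 and 1.61 FPKM in the OT uteruses. OT4 and OC3 nearly met, and the log2 fold change was 2.13 (SE 0.78, unadjusted p = 0.0255, adjusted p = 0.556 by limma). The call of Dusp4 was lost without the OC1 or the OC2 uterus. The related phosphatase gene Dusp6 was at 16.4 ± 0.977 FPKM (SD, n = 3) in OC and 19.9 ± 6.96 (SD, n = 4) in OT (log2 fold change 0.23, unadjusted p = 0.356 by limma). The Sprouty genes, which damp the receptor signal, were not called in the uterus, with log2 fold changes of 0.24 for Spry1, 0.06 for Spry2 and 0.24 for Spry4. The transcription factor gene Etv5 was at -0.11 in the same comparison.

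Among the regulators and targets of Fgf21 and Klb, Pparg was the only gene called of 9 tested in the uterus. Pparg encodes the nuclear receptor that directs adipocyte formation and is known to regulate both Fgf21 and Klb. It was 3.999, 4.33 and 2.82 FPKM in the OC and 74.0, 16.0, 11.2 and 11.5 FPKM in the OT uteruses. All OT uteruses lay above all OC uteruses, with a log2 fold change of 2.40 (SE 0.62, unadjusted p = 0.00478, adjusted p = 0.485 by limma), and 1.77 (unadjusted p = 6.91e-05 by limma) without OT1. Of all genes tested in the uterus, 6.46% separated in this way. In the ovary Pparg was 13.4 ± 4.02 FPKM (SD, n = 3) in OC and 13.1 ± 3.24 (SD, n = 4) in OT, with a log2 fold change of -0.01. Ppara, the fatty acid sensor that induces Fgf21 in liver, was at 7.71 FPKM in the OT1 uterus and between 0.577 and 1.37 FPKM in the other uteruses, and was not called (log2 fold change 0.80, unadjusted p = 0.335 by limma). The coactivator gene Ppargc1a was not called either (0.70, unadjusted p = 0.192 by limma).

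The difference between the tissues of OT minus OC was called for the same 3 of 62 pathway genes. It was 2.97 for Lctl, 1.91 for Dusp4 and 2.42 for Pparg, with an adjusted p of 0.844 for each by limma. Over all genes 1.83% were called in this comparison, and none had an adjusted p under 0.05 by limma. With the adipocyte markers as a covariate none of the pathway genes was called in the uterus. Over all genes that fit gave 410 higher and 178 lower calls. The marker sums of OT and OC did not overlap there, so the fit cannot tell the group from the covariate. Pparg is itself an adipocyte gene, and the part of adipocytes in these calls was not tested.

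**Figure D5:**
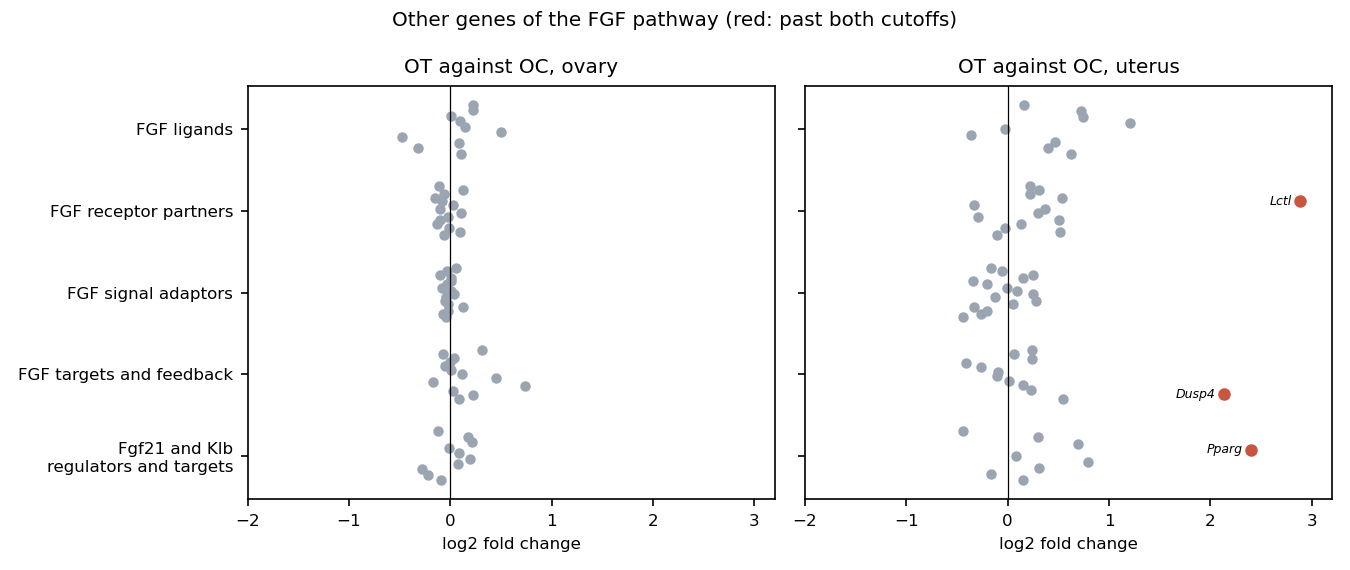
Log2 fold changes of OT against OC (x axis) for the genes of the 5 FGF pathway lists (rows) in the ovary and the uterus, 1 point per tested gene, with genes past both cutoffs in red. Only Lctl, Dusp4 and Pparg in the uterus are red, at 2.89, 2.13 and 2.40.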

How the data were processed

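RNA-seq values of 14 libraries were analysed, assigned by their labels. Per the labels and the methods, the authors computed the deposited FPKM from stranded, rRNA-depleted total RNA with Skewer, STAR 2.5, mm10 and Cufflinks 2.2.1. Depth is unknown, and Cuffdiff could not be repeated without reads. Symbols and positions came from GENCODE M21. Genes whose mean reached 0.5 FPKM in the libraries fitted were tested with limma 3.58.1 (R 4.3.3, eBayes with trend, tested on simulated data) on log2(FPKM + 0.1), which understates changes of low genes. A 2-fold change with an unadjusted p up to 0.05 made a call. Uterus against ovary used the mouse as a block and a Benjamini-Hochberg adjusted p. The difference between the tissues of OT minus OC was fitted without a mouse term. The same label (OC1 to OT4) was taken as the same mouse. P-values measure the spread between these mice.

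The members and lists were chosen with earlier results of these data known, and the motifs after the windows had been seen. All members, the called pathway genes, a set of known FGF genes and the nearest 5 genes were named, and Fgf11 to Fgf14 were kept with the ligands. B3galt2 and the genes near Fgfr3 came from the likeness rule. Other pseudocounts, filters, scalings, eBayes settings, covariates, blocks and left-out mice were tried. Python 3.11.15, pandas 2.3.3 and matplotlib 3.10.9 were also used.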

Additional observations from a re-analysis of the deposited data

Results flagged for a closer look

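In groups of 4 libraries, the highest or lowest library was compared with the range of its group by Dixon's criterion, which chance passes in about 1 of 20 groups of normally distributed values. It was applied to FPKM, sums and ratios without logs, so this rate need not hold here. Many groups were compared, with no adjustment for their number. In the OT uteruses Klb stood apart in OT1, at 22.0 FPKM. The same library stood apart in the summed adipocyte markers, at 18710 FPKM, and in the summed brown adipocyte markers, at 725.5 FPKM. In the OT ovaries the ratio of Klb to 100 FPKM of adipocyte markers stood apart in OT1, at 0.130. Fgfr3 stood apart in the OT3 uterus, at 5.51 FPKM.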

How the results depend on the processing

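Klb in the uterus was called under 17 of 18 alternatives, all but the covariate. Without the covariate it was at 2.14 to 4.57 (3.05 to 4.23 leaving out 1 mouse), with adjusted p of 0.088 to 0.923 by limma. With the covariate the adjusted p was 0.984 by limma. In the ovary it was called under 2 of 18 (0.89 to 1.98 leaving out 1 mouse), with adjusted p of 0.742 to 1. With the adipocyte covariate Klb was -0.28 in ovaries and -0.080 in uteruses, where Fgfr1 was -0.0062 and Fgfr2, the 1 member called, 1.02, and 0 pathway genes were called there. In the uterus the marker sums of OT and OC did not overlap, so the covariate fit cannot tell the group from the covariate there. The cause was not tested.

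Leaving out each mouse, 0 to 1 members were called in the ovary, 1 to 2 in the uterus, 0 to 1 between tissue effects and 2 to 3 between tissues, with 2 to 4 pathway genes in the uterus. Tissue effects here are differences between the tissues of OT minus OC, with no cause implied. Ranges that crossed 0, none of them called, were Fgfr2 in the ovary (-0.046 to 0.15), Fgfr4 in the ovary (-0.17 to 0.30), and the tissue effects of Fgfr1 (-0.023 to 0.24) and Fgfr4 (-0.69 to 0.14). Without a filter, 5 pathway genes were called in the uterus. A pseudocount of 1 left 1 member called between tissues. Over all genes it moved the calls from 53 higher and 12 lower to 16 and 2 in the ovary, from 316 and 94 to 202 and 57 in the uterus, and from 186 and 81 to 105 and 29 for the tissue effects. Without a filter the ovary gave 99 and 60 and the tissue effects 298 and 140, and with a minimum mean of 1 FPKM the ovary gave 35 and 7.

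With the replicate number as a block, without OT4, Klb in the ovary was 1.76 (unadjusted p = 0.0336 by limma) and was the 1 member called, and Fgfr2 was -0.046. Same-numbered OC and OT mice share only a number, and the correlations of their deviations ran from -0.027 to 0.331. Over all genes the block gave 428 higher and 238 lower calls in the uterus, 69 and 34 in the ovary and 267 and 152 for the tissue effects. Scaling to TPM moved the median of all uterus genes to -0.13, and that of uterus against ovary to -0.25. Its splits were 273 higher and 146 lower in the uterus, 161 and 113 for the tissue effects, and 1058 and 1874 between tissues against 1468 and 1387. The tissue effect of Fgfr1 was then -0.045, and Fgfr1 and Fgfr2 no longer had an adjusted p under 0.05 between tissues (0.138 and 0.165 by limma). A single fit of all 14 libraries gave 47 uterus genes an adjusted p under 0.05 by limma.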
